A study of Mus musculus with 786 samples.

Results

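Prtn3 encodes proteinase 3, a serine protease of the primary (azurophil) granules of neutrophils, and it was examined here with 4 other granule-stage genes: Elane (neutrophil elastase), Ctsg (cathepsin G), Mpo (myeloperoxidase) and Ms4a3, a membrane protein gene that marks granulocyte and monocyte progenitors in mice. The 5 genes are 5 of 21664 genes in the single-cell tables and 5 of 18855 in the bulk table, where Elane stands under its older symbol Ela2. They were chosen by name and with their values known: Prtn3 for being read in about every other stem cell while Mpo was nearly absent, and all 5 for their levels in 18 bulk populations. Those shares and levels are therefore given as a description, with no test.

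The samples were bone marrow cells of C57BL6 mice of 6 to 8 weeks. Single cells in plates of 96 wells came from 4 groups: multipotent precursors 1 of bled mice (bled MPP1, 1 plate), stem cells of bled mice (bled HSC, 1 plate), MPP1 of normal mice (2 plates) and haematopoietic stem cells (HSC) of normal mice (plates 1 and 2). HSC plate 3, labelled as a further HSC replicate with an RNA spike-in, stands in a table of its own, and its protocol text mentions mice of both kinds, normal and bled, so its values are shown but it enters the tests only as an alternative. Both cell types were sorted as CD48-, CD150+ and CD135-, with MPP1 being CD34+ and HSC CD34-. The labels do not give the amount or time of bleeding, nor how many mice a plate held. Bulk RNA came from 18 sorted populations with 1 library each, so bulk values carry no replicate error. Values are FPKM, which divides the fragments of a gene by its transcript length and by the library's mapped fragments. A gene counted as detected at FPKM 1, and a cell was used if its well was labelled with exactly 1 cell and held at least 1000 detected genes, which left 373 of 460.

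Primary granules are filled at the promyelocyte stage, when the serine proteases and myeloperoxidase are made together. The proteases are made as inactive precursors that cathepsin C (Ctsc) trims, are stored on the proteoglycan serglycin (Srgn) and are held in check in the cytosol by serpins such as Serpinb1a. Stem cells hold no such granules, and transcripts of these genes are commonly used as signs of the granulocyte and monocyte line.

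The labelled cell types were checked against their sort markers. Kit, the stem cell factor receptor, was detected in 72.9% to 96.1% of the cells of each plate, and Cd48 in 0% to 8.00%. Slamf1, the gene of CD150, was detected in only 4.00% to 27.1%, although the cells were sorted as CD150+. Flt3, the gene of CD135, was detected in 0% to 19.6%, although the cells were sorted as CD135-. On MPP1 plate 1 Flt3 was detected in 19.6% of cells and Slamf1 in 9.80%. Cd34 was detected in 66.0% of bled MPP1 and 20.8% of bled HSC, and in 70.6% and 70.8% of the cells of the MPP1 plates against 34.0%, 56.6% and 42.5% of the HSC plates. Plates had a median of 1969 to 3046.5 detected genes per cell, the highest being the bled MPP1 plate. HSC plate 1 has a repeat run among the samples, and its columns could hold either run. Of 150 wells labelled as holding no cell, 20 reached 1000 genes, with 1003 to 4384 genes each. Some of these labels may be wrong, which was not tested.

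Prtn3 and Elane are neighbours on mouse chromosome 10, with Prtn3 upstream of Elane on the same strand, and Mpo lies on chromosome 11. The 250 bases before each start are shown because the neighbours had opposite levels in bulk HSC, while all 3 genes were high in bulk granulocyte-macrophage progenitors (RefSeq, build GRCm38.p6; all 5 genes matched). The windows are chr10:79879417-79879666 for Prtn3, chr10:79886062-79886311 for Elane and chr11:87793534-87793783 for Mpo, all on the plus strand. Capitals mark matches to AGGAAGT (an ETS-type motif), CAACGG (a Myb-type motif) and TATAA.
Prtn3: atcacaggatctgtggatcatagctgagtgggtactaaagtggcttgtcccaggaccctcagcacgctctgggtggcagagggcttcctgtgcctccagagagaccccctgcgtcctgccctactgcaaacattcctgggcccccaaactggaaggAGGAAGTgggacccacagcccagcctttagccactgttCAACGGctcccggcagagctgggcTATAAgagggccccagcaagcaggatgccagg
Elane: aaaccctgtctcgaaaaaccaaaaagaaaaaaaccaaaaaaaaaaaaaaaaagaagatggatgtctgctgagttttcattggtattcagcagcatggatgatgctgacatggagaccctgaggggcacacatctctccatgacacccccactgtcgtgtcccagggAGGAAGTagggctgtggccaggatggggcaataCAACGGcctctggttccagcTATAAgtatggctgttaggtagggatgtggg
Mpo: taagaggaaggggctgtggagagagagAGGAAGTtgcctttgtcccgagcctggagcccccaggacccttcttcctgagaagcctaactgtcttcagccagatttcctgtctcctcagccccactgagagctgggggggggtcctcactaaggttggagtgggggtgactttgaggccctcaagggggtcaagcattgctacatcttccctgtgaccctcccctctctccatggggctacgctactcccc
Both strands were searched for these motifs and for TTGCNNAA, a C/EBP-type motif, and the motifs were picked after the sequences had been seen. In Prtn3 the first 3 begin 94, 56 and 32 bases before the start, and in Elane 84, 51 and 31 bases before it, in the same order. The neighbours thus share the layout of these 3 matches, whereas Mpo holds only AGGAAGT, 223 bases before its start. Ctsg holds AGGAAGT and, on the other strand, TATAA, and Ms4a3 holds none of the 4. Of 32851 promoter windows of this length, 7.69% hold AGGAAGT, 4.05% CAACGG, 22.8% TATAA and 9.56% TTGCNNAA. A match is a run of letters and not a measured site.

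In single cells Prtn3 was read in many cells of every plate, while the other 4 genes were nearly absent from all of them. Prtn3 was detected in 217 of 373 cells, or 58.2% (95% exact Clopper-Pearson interval 53.0% to 63.2%, counting error only). Ms4a3 was detected in 4 cells, Elane in 2 and Mpo in 1. Ctsg was detected in 0 of 373 cells, which allows a share of up to 0.804%. Such scarcity is common, since 58.9% of all listed genes were detected in under 5% of cells (median over plates). On each plate only 619 to 1533 of the 21664 genes were detected in more cells than Prtn3.

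The share of cells with Prtn3 was 76.0% (38 of 50) on the bled MPP1 plate, 70.8% (34 of 48) on the bled HSC plate, 49.0% (25 of 51) and 47.9% (23 of 48) on the MPP1 plates, and 54.0% (27 of 50), 64.2% (34 of 53) and 49.3% (36 of 73) on the HSC plates. Both bled plates were above the 5 others, as they were for 9% of genes. The MPP1 plates were below HSC plates 1 and 2 and close to HSC plate 3. The level over all cells of a plate averaged 92.0 FPKM in bled MPP1, 72.1 FPKM in bled HSC, 46.4 and 31.3 FPKM in MPP1, and 70.2, 38.5 and 59.7 FPKM in HSC. The bled plates again had the highest values, but HSC plate 1 lay within 2 FPKM of bled HSC, and the MPP1 and HSC plates overlapped.

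Cells with Prtn3 differed widely in level within a plate. Among cells with the transcript the median was 60.6 FPKM in bled MPP1, 83.2 FPKM in bled HSC, 70.1 and 38.2 FPKM in MPP1, and 81.3, 23.0 and 59.9 FPKM in HSC. The highest cell reached 504 FPKM in bled MPP1, 330 FPKM in bled HSC, 282 and 221 FPKM in MPP1, and 527, 277 and 796 FPKM in HSC. HSC plate 2 combined the highest share of the 5 plates not labelled bled with the lowest median among its cells with Prtn3. On 5 of 7 plates cells with Prtn3 had more detected genes at the median than cells without it, for example 3184 against 2822 genes on the bled MPP1 plate, while on HSC plate 1 (2147 against 2193) and on the bled HSC plate (2386.5 against 2576.5) they had fewer. The part of these gene numbers in the shares was not tested.

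**Figure D1:**
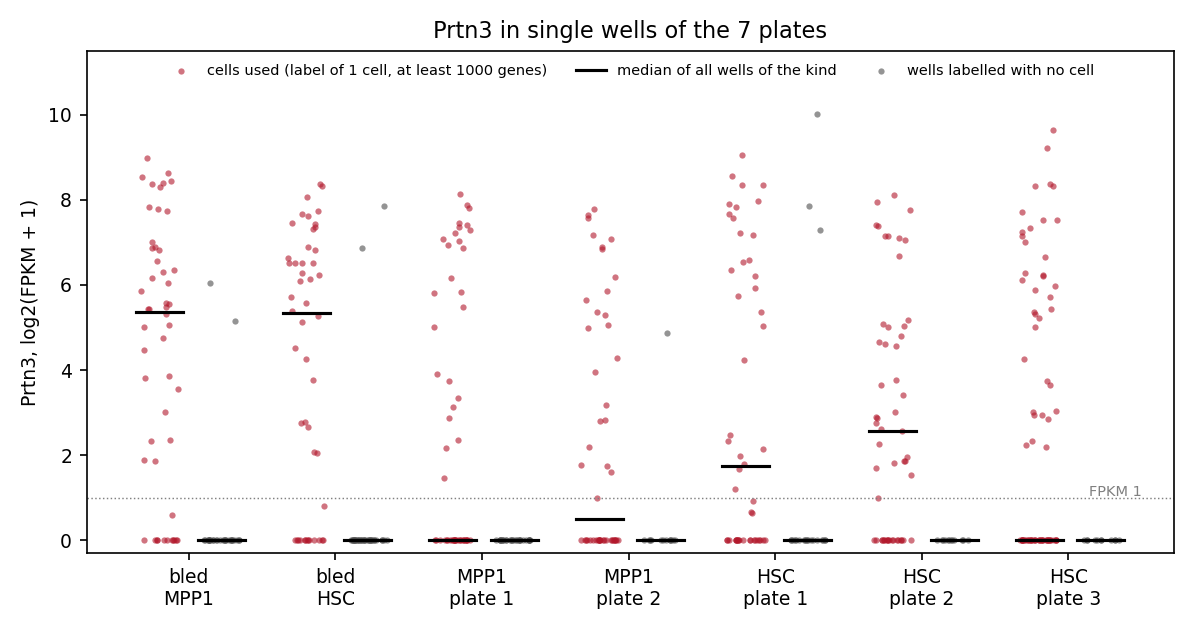
Prtn3 level in each well, as log2(FPKM + 1), for the cells used (red, left of each plate's position) and the wells labelled with no cell (grey, right), with the median of each kind as a black bar and FPKM 1 as a dotted line. Every plate has many cells at 0 and a broad spread above FPKM 1, and 8 of 150 no-cell wells carry Prtn3.

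Wells labelled with no cell gave a background for the shares. Prtn3 was detected in 8 of 150 of them (5.33%, interval 2.33% to 10.2%), and the share of cells exceeded that of no-cell wells on 7 of 7 plates, by 53.8 ± 12.2 percentage points (mean ± SD, n = 7 plates; lowest 39.7, highest 69.1). With only no-cell wells under 1000 genes as the background the difference was 54.8 points. Cells had to reach 1000 genes, whereas only 20 of the 150 no-cell wells did, so part of the gap was built in. Over every well labelled 1 cell, without that filter, it was 43.7 points. Prtn3 was picked for its share in cells, so no p is given. The same difference was not counted over all genes, and the values are a description. Levels in those 8 wells were not low: they ranged from 28.1 to 1038 FPKM, and 6 of them held fewer than 1000 genes. On HSC plate 1 the mean level was 70.2 FPKM over cells and 67.9 FPKM over the 21 no-cell wells, 18 of which were at 0. Without the well at 1038 FPKM the mean of the other 20 was 19.4 FPKM. The well with 28.1 FPKM held 4384 genes and also Ctsg at 14.7 FPKM.

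Of the 7 cells with another granule gene, 5 held Prtn3 too, as did 58.2% of all cells used, and none held a further one. An HSC of plate 1 held Elane at 22.0 FPKM beside Prtn3 at 81.3 FPKM, and a bled HSC held Elane at 2.02 FPKM beside Prtn3 at 163 FPKM. Mpo stood at 1.55 FPKM in an MPP1 cell with Prtn3 at 115 FPKM. Ms4a3 was the most frequent of the 4: it stood at 68.2 FPKM in a bled MPP1 cell with Prtn3 at 220 FPKM and at 62.1 FPKM in an MPP1 cell with Prtn3 at 72.4 FPKM. The other two cells with Ms4a3, an MPP1 cell at 1.42 FPKM and an HSC at 104 FPKM, had no Prtn3. In all, 5 of 217 cells with Prtn3 (2.30%) and 2 of 156 cells without it (1.28%) held another of the 5 genes, and no test is given for counts this small.

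**Figure D2:**
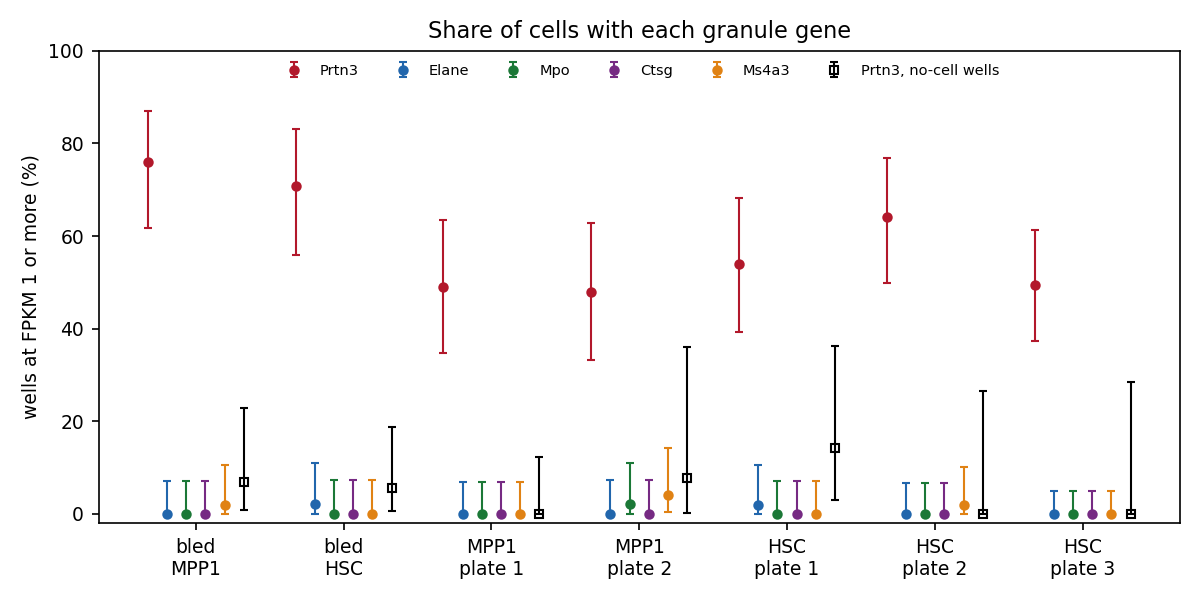
Share of cells used (percent) with each of the 5 genes at FPKM 1 or more on the 7 plates (filled points), and share of no-cell wells with Prtn3 (open squares), with 95% exact binomial intervals. Prtn3 lies between 47.9% and 76.0% on all 7 plates, while the other 4 genes lie between 0% and 4.17%.

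The change from HSC to MPP1 was tested over plates 1 and 2 of each. Prtn3 averaged 38.8 ± 10.6 FPKM in MPP1 and 54.4 ± 22.5 FPKM in HSC (SD over plates, n = 2 each). The difference was -0.44 ± 0.55 (SE) on the scale of log2(plate mean FPKM + 1), with limma's adjusted p = 0.910 (Benjamini-Hochberg over 9833 genes), and it was smaller than its error. The background is 0.0102% of genes, since 1 of 9833 was called in this comparison, the small nucleolar RNA gene Snora30, named here because it is the one call, and 667 had an unadjusted p under 0.05. Both MPP1 plates had lower shares of cells with Prtn3 than both HSC plates, which held for 15.6% of genes. This order did not hold under other settings: from FPKM 5, MPP1 plate 1 had 43.1% against 40.0% on HSC plate 1, in cells with at least 2000 genes the MPP1 plates had 59.0% and 59.5% against 54.5% on HSC plate 1, and over every well labelled 1 cell MPP1 plate 1 had 47.3% against 45.8% on HSC plate 1. The other 4 genes did not reach the mean of FPKM 1 needed for the test.

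Bleeding was tested over the 2 bled and 4 normal plates of numbers 1 and 2, with cell type as a covariate. The Prtn3 difference was 0.86 ± 0.45 (SE, log2 scale as above), with an unadjusted limma p of 0.0774 and an adjusted p = 0.874 over 10017 genes, so it did not pass. No gene passed (0% of those tested), and 586 had an unadjusted p under 0.05. Both bled plates had higher shares of cells with Prtn3 than all 4 normal plates, a pattern shown by 9.63% of genes. The effect of bleeding was 0.79 larger in MPP1 than in HSC on that scale (interaction). Each cell type has 1 bled plate, so this difference has no bled replicate and no p is given.

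The bled plates stand in a table of their own, made apart from that of the normal plates, so bleeding cannot be told apart from table or plate. When the mean was taken over the log2 values of single cells, which gives the cells at 0 more weight, the bleeding difference was 1.54 ± 0.44 (SE), with an unadjusted p of 0.00169 and an adjusted p = 0.262 in limma. Among cells with at least 2000 but under 3000 detected genes, a range chosen after the data were seen, Prtn3 was detected in 83.3% of bled MPP1 and 72.7% of bled HSC, in 60.0% and 54.5% of the cells of the MPP1 plates and in 62.1%, 61.8% and 63.6% of those of the HSC plates. In this range the bled plates were still the highest of the 7 and the HSC plates were within 2 points of each other. The bled MPP1 share rests on 15 of 18 cells (exact binomial interval 58.6% to 96.4%). Bled HSC had 24 of 33 cells (54.5% to 86.7%) and MPP1 plate 2 had 12 of 22 (32.2% to 75.6%), and these intervals overlap. Cells were not matched for gene number within the range, so the part of gene number in the shares was not tested. In that range of cells the bleeding difference in the mean was 0.68 ± 0.57 (SE), with an adjusted p = 0.908 in limma.

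Among bulk populations Prtn3 had 2 separate high points, the granulocyte-macrophage progenitors and the stem cells. Its highest levels were 186 FPKM in GMP-7 and 155 FPKM in GMP-11, populations sorted as c-Kit+, Sca1- and CD16/32+ by 2 different gates. HSC came next with 51.0 FPKM, ahead of MKP (megakaryocyte progenitors, 27.3 FPKM), CMP (common myeloid progenitors, 22.5 FPKM) and MPP1 (22.5 FPKM). Each population is 1 library, so no step in this order has an error to judge it by, and CMP and MPP1 were nearly equal. Over all 18 populations Prtn3 had a median of 6.28 FPKM, and it was under 1 FPKM in MPP2 (0.52 FPKM) and in 6 others, among them preMegE, MEP and the 3 erythroid stages.

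From HSC through the multipotent precursors the Prtn3 level was 51.0 FPKM in HSC, 22.5 in MPP1, 0.52 in MPP2, 12.9 in MPP3 and 19.1 in MPP4. Elane was listed at 0 in HSC and had 0.59 FPKM in MPP1, 49.4 in MPP2, 272 in MPP3 and 8.60 in MPP4. Mpo had 0.21 FPKM in HSC, 0.65 in MPP1, 28.0 in MPP2, 150 in MPP3 and 106 in MPP4. The order of Prtn3 over the first 3 of these populations was thus the opposite of that of Elane and Mpo. In bulk HSC Prtn3 made up 99.6% of the summed FPKM of the 5 genes, and 93.5% in MPP1, against 0.66% in MPP2, 2.94% in MPP3 and 13.4% in MPP4.

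All 5 genes were highest in the granulocyte-macrophage progenitors. In CMP Mpo had 229 FPKM, Elane 89.8, Ctsg 46.8, Prtn3 22.5 and Ms4a3 1.19. In GMP-7 Elane had 1055 FPKM, Mpo 1004, Ctsg 313, Prtn3 186 and Ms4a3 52.1, and in GMP-11 Elane had 2932, Mpo 1257, Prtn3 155, Ctsg 102 and Ms4a3 28.8. All 5 genes were at FPKM 1 or more in these 3 populations. Ms4a3 was the most restricted, at FPKM 1 or more in 3 of 18 populations, against 8 for Ctsg, 9 for Elane, 10 for Mpo and 11 for Prtn3. Outside these 3 populations Elane was above Mpo in MKP (596 against 77.5 FPKM) and in preMegE (33.3 against 0.09 FPKM). It was also above Mpo in MPP3 (272 against 150 FPKM) and in MPP2 (49.4 against 28.0 FPKM). Whether other cells gave the Elane of the MKP library was not tested. The library labelled mature megakaryocytes had Prtn3 at 6.34 and Mpo at 6.11 FPKM, and 1642 genes reached FPKM 1 in it. It also had markers of other cell types, Lyz2 at 360, the basophil gene Prss34 at 234 and the neutrophil gene Ngp at 44.0 FPKM. Of the megakaryocyte markers, Itga2b had 44.9 and Pf4 0.65 FPKM there. Whether other cells gave its Prtn3 and Mpo was not tested.

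**Figure D3:**
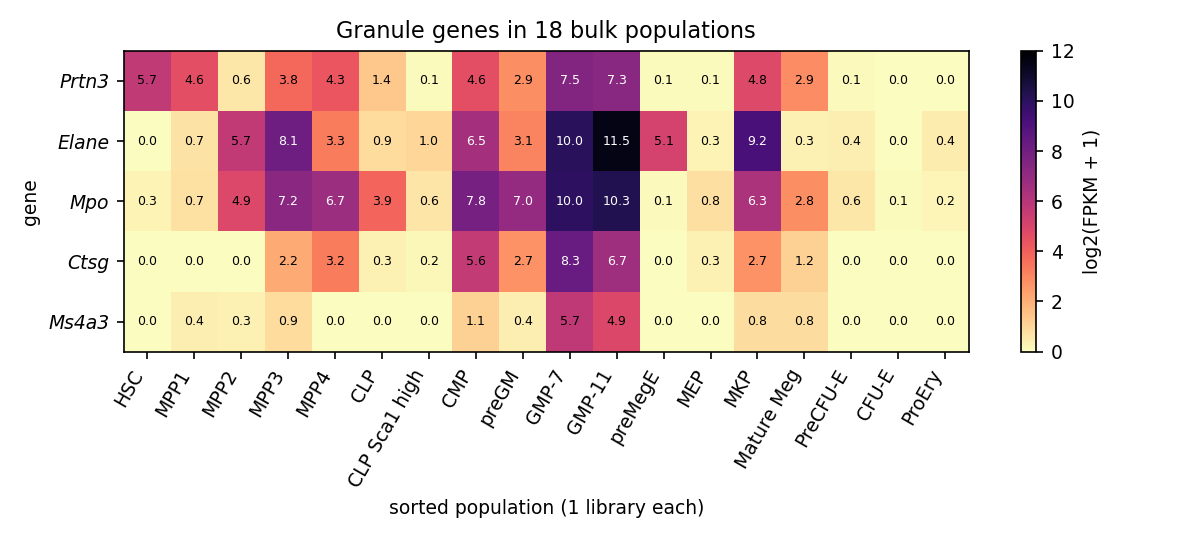
Level of the 5 genes, as log2(FPKM + 1), in 18 sorted bulk populations with 1 library each, from stem cells on the left over lymphoid and granulocyte-macrophage to megakaryocyte and erythroid populations. All 5 genes peak in GMP-7 or GMP-11, and of the 5 only Prtn3 is at FPKM 1 or more in HSC (5.7 on this scale).

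Against bulk HSC, 4 of the 5 genes were at least 4-fold higher (on FPKM + 1) in GMP-7 and in GMP-11, and Prtn3 was the exception with 3.59-fold and 2.99-fold. The background is high: 42.3% of 6561 genes at FPKM 1 in either library were 4-fold higher in GMP-7, and 41.4% of 6210 in GMP-11. The median gene was 1.68 higher in GMP-7 on the log2 scale, where 6080 genes reached FPKM 1 against 2866 in HSC, and Prtn3 was 1.84 higher. Elane, Ctsg and Ms4a3 were listed at 0 in HSC, so no fold is given for them.

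Across the 18 populations Prtn3 correlated with Ctsg (Pearson r = 0.78 on log2(FPKM + 1)), Ms4a3 (0.72), Mpo (0.72) and Elane (0.63). Leaving out HSC and MPP1, a choice made with their values known, the same r over 16 populations was 0.94 with Ctsg, 0.93 with Mpo, 0.82 with Ms4a3 and 0.81 with Elane. Mpo and Ctsg, both low in HSC and MPP1, had 0.89 over 18 and 0.88 over 16. Populations share precursors and differ in gene number, so these values are descriptions. The genes most like Prtn3 among 6119 that reached FPKM 10 somewhere were Anxa3 (r = 0.82), Ckap4 (0.80), App (0.79), Fes, Ctsg, Sort1, Xpo7, Usp22, Ly6e and Serpinf1. Among these App, the amyloid precursor protein gene, had 326 FPKM in GMP-7, 532 in GMP-11 and 2170 in HSC, and Fes, a tyrosine kinase gene of myeloid cells, had 13.5, 16.4 and 28.3 FPKM in the same populations. Both share with Prtn3 a high point in HSC, whereas Ctsg does not.

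**Figure D4:**
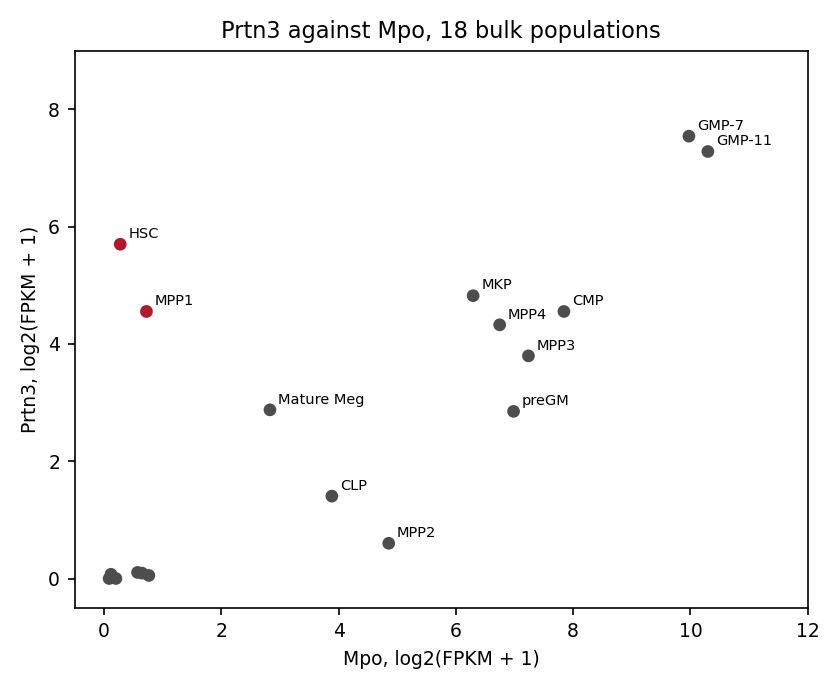
Prtn3 against Mpo, both as log2(FPKM + 1), in the 18 bulk populations, with HSC and MPP1 in red. HSC (51.0 FPKM Prtn3, 0.21 FPKM Mpo) and MPP1 (22.5 and 0.65 FPKM) lie at the upper left, apart from the populations that run up to GMP-7 and GMP-11 at the upper right.

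In single cells no gene followed Prtn3 closely. Of 4634 genes detected in at least 10% of cells on every plate, the highest mean within-plate Spearman rho with Prtn3 was 0.26, for Uqcrh (a subunit of respiratory complex III), and it ranged from -0.04 to 0.45 over the 7 plates. The next were Gm2a, Cnot6l, Rpl7 and Gm6900 with 0.22 to 0.23, where the median gene had 0.05. Correlations this weak in sparse values are no finding.

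Genes listed with the primary granule were in part widespread and in part missing from the same cells. Of the 21 further genes on this list, 7 were detected in at least 40% of cells (median over plates), against 8.51% of all genes. These included Srgn, the granule matrix proteoglycan, in 91.8% to 100% of cells, the chaperone gene Calr in 72.0% to 92.0%, the membrane gene Cd63 in 64.2% to 93.8%, and Lyz2, whose reads may be shared with its near-identical copy Lyz1. The list also holds genes with roles beyond the granule. Calr, Cd63, Ctsd, Gstm1 and Plac8 are such genes, and all of them are among the 7. The count is therefore not one of granule genes alone. Ctsc, which activates the proteases, was detected in 17.6% to 38.0% of cells. Bpi, Fcnb and Hp were detected in no cell, and Prss57, which encodes neutrophil serine protease 4, in 0% to 4.17%. In bulk, 15 of the 18 genes of the list that reached FPKM 1 in either library were at least 4-fold higher in GMP-7 than in HSC, against the 42.3% of all genes given above. Members of the list thus ranged from read in nearly every cell to read in none, with Prtn3 among those read in many.

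Later granule genes were mostly unread. Of 16 genes of secondary and tertiary granules and of late neutrophil function, 15 were detected in under 5% of cells (median over plates) and 9 in none, against 58.9% and 37.3% of all listed genes. Ltf (lactoferrin) and Ngp were among the 9, while Padi4, a histone-modifying enzyme, was detected in 6.85% to 21.6%. Of 12 genes of protease activation and inhibition, 4 reached 40% of cells (median over plates), against 8.51% of all listed genes. They included Serpina3g in 58.3% to 86.0% and Cst3, a cathepsin inhibitor gene, in 67.1% to 88.0%. Srgn is among them too, and Srgn, Ctsc and Serpinb1a also stand in the primary granule list. Serpinb1a was detected in 52.0% of bled MPP1, 12.5% of bled HSC, 45.1% and 58.3% of MPP1, and 28.0%, 34.0% and 21.9% of HSC. Its shares in MPP1 lay above those in HSC, as did those of 20.5% of genes (plates 1 and 2), and the limma difference of 1.09 ± 0.54 (SE, log2 scale) did not pass, with an adjusted p = 0.750.

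Transcription factors of granulocyte and monocyte differentiation ranged from absent to read in most cells. Of 14 such factors, Cebpe was detected in no cell, Cebpa in 0% to 3.92%, Gfi1 in 0% to 6.25% and Spi1 (PU.1) in 3.77% to 15.7%, while Myb was detected in 70.8% to 95.8%, Gata2 in 66.0% to 86.0% and Runx1 in 32.0% to 62.5%. In bulk, Cebpa had 15.4 FPKM in GMP-7 and was listed at 0 in HSC. Of 10 growth factor and myeloid receptors, only Kit reached 40% of cells (median over plates), where 8.51% of all listed genes did. Csf3r, the receptor of granulocyte colony-stimulating factor, was detected in 16.0% of bled MPP1, 4.17% of bled HSC, 49.0% and 27.1% of MPP1, and 10.0%, 20.8% and 11.0% of HSC. Of 7 genes next to Prtn3 and Elane, only R3hdm4 reached 40%, in 54.9% to 89.6% of cells, with the same 8.51% as background. Cfd, a further serine protease gene there, was listed at 0 in every cell used and every bulk population. No gene of these 6 lists was called by limma for MPP1 against HSC or for bled against normal, where 1 of 9833 and 0 of 10017 genes were called in all. Many list genes were too low to be tested: 16 of 21 primary granule genes, 3 of 16 later granule genes, 8 of 12 of protease activation and inhibition, 9 of 14 transcription factors, 6 of 10 receptors and 4 of 7 neighbours entered the test of MPP1 against HSC.

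Markers of other cell types were measured beside Prtn3. Shares here are medians over plates, and 58.9% of all genes were under 5%. All 8 mature neutrophil markers were detected in under 5% of cells, and 5 of them, Ltf, Ngp, Lcn2, Retnlg and Mmp8, in none. Their summed mean level was 0 FPKM on both bled plates, 8.48 and 0.49 FPKM on the MPP1 plates and 9.81, 3.06 and 0 FPKM on the HSC plates, where Prtn3 averaged 31.3 to 92.0 FPKM over the 7 plates. Of 9 monocyte and macrophage markers 8 were under 5%, with summed levels of 17.2 FPKM in bled MPP1, 30.6 in bled HSC, 2.32 and 1.61 in MPP1 and 21.3, 1.07 and 5.77 in HSC. All 7 mast cell and basophil markers were under 5%, with sums of 0 to 4.91 FPKM and Cpa3 reaching 6.25% on MPP1 plate 2, and Mcpt8 and Prss34 were detected in no cell. All 6 T and NK cell markers, 5 of 6 B cell markers (all but Cd79b), 4 of 5 erythroid and 2 of 6 megakaryocyte markers were under 5% as well. The summed T and NK cell level was 74.9 FPKM on the bled HSC plate, where Klrb1c was detected in 14.6% of cells, and 0 to 6.30 FPKM on the other 6 plates. The sums were 15.8 to 105 FPKM for B cell, 19.3 to 68.0 FPKM for erythroid and 41.8 to 256 FPKM for megakaryocyte markers, with the erythropoietin receptor gene Epor detected in 18.0% of bled MPP1. The part of these markers in the Prtn3 values was not tested. In bulk HSC the sums were 0 FPKM for mature neutrophil and 11.6 FPKM for monocyte and macrophage markers, of which Irf8 alone gave 9.92 FPKM.

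The labels give bulk HSC the same CD34+ gate as bulk MPP1. Cd34 stood at 1785.5 FPKM in bulk MPP1 and at 25.2 FPKM in bulk HSC, so the levels do not go with a shared gate. Some sort or stem cell markers were almost unread in bulk HSC, Ly6a (Sca-1) at 0.08 FPKM and Procr at 0.16 FPKM, although Ly6a was detected in 43.1% to 72.0% of single cells. Ly6a was not alone in this. Cd63 had 0.50 FPKM in bulk HSC and was detected in 64.2% to 93.8% of single cells, and Gstm1 had 0.22 FPKM and 54.2% to 80.0%. A bulk HSC level near 0 therefore does not show by itself that a gene was unread in single cells. Bulk levels of Elane, Ctsg and Ms4a3 listed at 0 in HSC stood beside near-absence of the same genes from single HSC. In bulk samples, fewer cells of a type and less RNA per cell cannot be told apart.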

How the data were processed

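Single cells (7 plates, 672 wells) and 18 bulk populations of 1000 cells were measured by RNA sequencing, with Smart-seq or C1 Fluidigm chemistry for the cells, per the labels' protocols. The authors deposited FPKM values per gene and well or population. TopHat 1.3.3, Cufflinks 1.2.1 and mm9 (Bowtie2 2.2.1 for some samples) are named in the submitters' processing notes, with no role or order. Read depth is not given, and exact 0 values can be failed estimates. The 96 samples of a second run of that HSC plate numbered 1 were left out.

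The members and lists were chosen with earlier results of these data known. Named genes were all 5 members, the 10 genes most like Prtn3 in bulk, the 5 most like it in cells, and list genes given as examples, which were chosen after their values were seen. A plate was the replicate. The labels do not say whether plates came from separate mice, so p-values measure the spread between plates. Plate means of FPKM were tested as log2(FPKM + 1) with limma 3.58.1 in R 4.3.3 (trend, two-sided, Benjamini-Hochberg threshold 0.05), for genes whose plate means averaged FPKM 1 or more. This scale understates changes of low genes. The model was tested on simulated data. Intervals are exact binomial, 95%, and the limit for a share of 0 uses 3 counts. Both cover counting error only. Tables and figures were made with Python 3.11.15, pandas 2.3.3, scipy 1.17.1 and matplotlib 3.10.9. Alternatives were another pseudocount, no filter, other detection and gene-number thresholds, a mean of log2 values, and leaving out each plate.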

Additional observations from a re-analysis of the deposited data

Results flagged for a closer look

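Wells labelled with more than 1 cell entered no comparison. Prtn3 was detected in 41 of 62 of them (66.1%, 95% exact binomial interval 53.0% to 77.7%), above the 5.33% of wells labelled with no cell, which is what drew attention to them. In the same 62 wells Ms4a3 was detected in 2, Mpo in 1, and Elane and Ctsg in none, where a count of 0 allows up to 4.84%. Prtn3 was detected in 58.2% of the cells used, and the difference from wells with more cells was not tested.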

How the results depend on the processing

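The Prtn3 difference kept its direction and did not pass the limma threshold under any alternative run: MPP1 minus HSC lay between -0.86 and -0.01 over 11 alternatives (adjusted p 0.725 to 0.998, both ends set by leaving out HSC plate 2 or plate 1), and bled minus normal between 0.46 and 1.54 over 12 (adjusted p 0.262 to 1). Leaving out the bled MPP1 plate gave 0.46 and leaving out the bled HSC plate 1.25, each with the lone bled plate assumed to vary like the others. Cells exceeded no-cell wells in Prtn3 share by 43.7 to 60.3 points over 12 alternatives, 51.3 to 56.2 without single plates.

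Genes called for MPP1 against HSC numbered 1, but 38 with means of log2 values, 58 with a replicate block, and 0 without the filter, in cells with 2000 to under 3000 genes and without any single plate. For bled against normal, 0 became 6 with means of log2 values, 3 in cells with 2000 to under 3000 genes, and 0 to 1 without single plates. The cause was not tested. The deviations of HSC plate 1 and MPP1 plate 1 from their group means had a correlation of 0.042 over 9833 genes. This value cannot show whether plates of the same number were prepared together. With the block the Prtn3 difference was still -0.44 (limma adjusted p = 0.921). No paired analysis was possible for bleeding, because bled and normal plates share fewer than 2 numbers.

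Of 35 alternative Prtn3 shares, 30 lay inside the interval of the reported share. The others were HSC plate 2 at detection from FPKM 5 (49.1%) and over every well labelled 1 cell (42.7%), HSC plate 3 in cells with at least 2000 genes (61.8%) or 2000 to under 3000 genes (63.6%), and bled MPP1 over every well labelled 1 cell (60.3%). With a pseudocount of 0.1 FPKM, 4290 genes were 4-fold higher in GMP-7 than in HSC and 3861 in GMP-11, and 4 of the 5 granule genes as before.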
